A study of Mus musculus with 36 samples.

Results

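The regions described are the ZFP296 peaks of mouse embryonic stem cells (ESCs) that lie on sites of the NuRD complex. A member is a peak of the GFP-ZFP296 ChIP-seq that shares at least 1 bp with an ESC MBD3 site and with an ESC CHD4 site, where a site is a peak of replicate 1 that overlaps a peak of replicate 2. This rule gave 560 of 3102 ZFP296 peaks (18.1%), and the other 2542 ZFP296 peaks serve as the comparison. ChIP-seq sequences the DNA precipitated with a protein, and each deposited peak carries the authors' −log10 value, a measure of how firmly the peak was called and not of occupancy. MBD3, CHD4 and SIN3A were precipitated from wild-type R1 ESCs and ZFP296 from ZFP296-BAC R1 ESCs with a GFP antibody, all grown in serum and LIF with 2i. MBD3 and CHD4 were also precipitated from neural progenitor cells (NPCs) that had been derived from wild-type R1 ESCs and kept in NPC medium. MBD3 and CHD4 had 2 replicates in ESCs and 1 list each in NPCs, ZFP296 had 1 list, and SIN3A had 1 list without and 1 list with spike-in chromatin. Peak lists of 9 of 36 samples were used. Peak names in 7 of them, all but the SIN3A lists, mention equal read numbers. The depth behind the SIN3A lists is unknown from the files. The members were thus chosen by called ZFP296, MBD3 and CHD4 peaks, so overlaps and values of those 3 proteins in ESCs are descriptions here. A few labels limit what the lists stand for. The labels put the tagged ZFP296 on a BAC in R1 cells and the methods of the study name a KH2 line instead, and a tagged transgene need not give the level of the native protein. CHD4 replicate 2 is labelled wild type but its peak names carry a Zfp219 BAC, and without that list the rule gave 568 members.

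NuRD couples an ATPase that moves nucleosomes, CHD4, to the histone deacetylases HDAC1 and HDAC2, and MBD3 is a scaffold subunit that is needed for the complex to form in ESCs. In pluripotent cells NuRD occupies enhancers and promoters of active genes, tunes the level of pluripotency regulators and is required for exit from self-renewal. ZFP296 is a zinc finger protein of early embryonic cells that associates with NuRD. SIN3A is the scaffold of a separate complex built around the same deacetylases. POU5F1 (OCT4) binds an octamer in DNA, often beside a SOX2 element, and both factors recruit partners to ESC enhancers.

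The sequences of 9 members are shown because they carry the strings that were searched or lie at the genes and runs of members described further on. Each is the central 200 bp of the peak, read 5′ to 3′ from the + strand of mm9. Capitals mark matches on either strand to the octamer, SOX, joined SOX and octamer, ESRRB, KLF, STAT, telomere unit and AP-1 strings. Matches to the other strings searched were left in lower case. The first lies upstream of Pou5f1 and holds a telomere unit and a SOX string. The next 3 hold the octamer ATGCAAAT. The Zfp296 and Socs3 members hold the telomere unit TTAGGG and the ESRRB string TCAAGGTCA, and the member of the miR-290 run holds the SOX string CCATTGT. The last pair, near Tmem51 and Osbpl10, holds the joined SOX and octamer string, CATTGT and ATG with 1 free base between them, and the STAT string TTCCNGGAA. The Tmem51 window also holds a telomere unit, and the Osbpl10 window a SOX string that overlaps the joined string.
Pou5f1, 0.906 kb upstream, chr17:35641976-35642175: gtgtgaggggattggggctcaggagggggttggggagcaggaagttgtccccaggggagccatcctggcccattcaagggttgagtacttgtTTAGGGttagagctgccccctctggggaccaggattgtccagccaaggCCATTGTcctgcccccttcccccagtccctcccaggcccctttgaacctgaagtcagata
Tcfcp2l1, chr1:120522067-120522266: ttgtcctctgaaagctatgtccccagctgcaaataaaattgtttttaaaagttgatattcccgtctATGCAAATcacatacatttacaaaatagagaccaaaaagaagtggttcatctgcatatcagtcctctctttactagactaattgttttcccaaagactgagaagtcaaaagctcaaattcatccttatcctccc
Il6st, chr13:113252755-113252954: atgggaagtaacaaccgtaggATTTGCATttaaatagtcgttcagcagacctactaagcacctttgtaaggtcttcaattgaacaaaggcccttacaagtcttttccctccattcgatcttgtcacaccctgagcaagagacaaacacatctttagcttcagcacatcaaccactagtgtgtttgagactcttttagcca
Tnrc18, chr5:143562385-143562584: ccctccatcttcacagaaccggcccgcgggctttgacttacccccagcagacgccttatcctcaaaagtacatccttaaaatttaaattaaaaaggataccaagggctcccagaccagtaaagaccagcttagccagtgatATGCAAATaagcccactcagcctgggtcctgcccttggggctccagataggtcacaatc
Zfp296, chr7:20161110-20161309: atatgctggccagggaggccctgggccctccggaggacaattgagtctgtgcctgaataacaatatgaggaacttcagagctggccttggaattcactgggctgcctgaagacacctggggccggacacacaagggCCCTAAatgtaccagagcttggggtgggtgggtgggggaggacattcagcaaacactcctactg
Socs3, chr11:117834040-117834239: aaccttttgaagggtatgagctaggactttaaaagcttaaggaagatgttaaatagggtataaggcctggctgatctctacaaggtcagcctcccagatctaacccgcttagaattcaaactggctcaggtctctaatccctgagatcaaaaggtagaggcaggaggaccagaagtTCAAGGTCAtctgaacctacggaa
miR-290 run, chr7:3206521-3206720: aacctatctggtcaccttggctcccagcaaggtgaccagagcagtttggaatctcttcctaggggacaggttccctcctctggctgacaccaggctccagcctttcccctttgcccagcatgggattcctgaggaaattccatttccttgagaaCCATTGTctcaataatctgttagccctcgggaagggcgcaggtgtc
Tmem51, chr4:141626731-141626930: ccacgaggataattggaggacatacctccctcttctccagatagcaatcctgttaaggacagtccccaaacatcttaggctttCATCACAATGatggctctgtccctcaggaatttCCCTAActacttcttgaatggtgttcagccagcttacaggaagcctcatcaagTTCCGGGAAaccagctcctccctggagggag
Osbpl10, chr9:114939740-114939939: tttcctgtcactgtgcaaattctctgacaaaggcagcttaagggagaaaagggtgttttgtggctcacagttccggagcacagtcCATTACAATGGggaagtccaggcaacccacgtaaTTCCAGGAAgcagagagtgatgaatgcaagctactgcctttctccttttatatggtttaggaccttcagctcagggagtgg
Capitals in the reverse orientation spell the complement, as ATTTGCAT does for the octamer at Il6st and CCCTAA for the telomere unit at Zfp296. In these windows the octamer began at base 67 near Tcfcp2l1, at base 22 near Il6st and at base 142 in Tnrc18, counted from the left end.

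The octamer, the element that POU5F1 binds, was found more often under ZFP296 peaks on NuRD sites than under the other ZFP296 peaks. It lay in the central 200 bp of 43 of 559 members (7.69%, 95% exact interval 5.62% to 10.2%) and of 101 of 2535 other peaks (3.98%). The odds ratio was 2.01, with a 95% interval from 1.35 to 2.94 and p = 0.0003565 in Fisher's exact test, two-sided throughout, or 0.00499 after adjustment over 14 strings. Such intervals and p-values cover the spread over peaks and not over ZFP296 libraries, of which there was 1. In comparison, 1.73% of all 200 bp tiles of the genome and 1.38% of the central 200 bp of RefSeq promoter windows held the octamer. Windows around transcription start sites (TSS, from 1 kb upstream to 5 kb downstream of a protein-coding start), which held 26.4% of all ZFP296 peaks, gave 8 of 64 members (12.5%) and 20 of 756 other peaks (2.65%), with odds 5.24 times as high (interval 1.91 to 13.1, exact p = 0.00079, adjusted p = 0.0111). Outside these windows the shares were 7.07% and 4.55%, a ratio of 1.595 (interval 1.03 to 2.43, exact p = 0.0282, adjusted p = 0.23). The ratio of both odds ratios was 3.30 (interval 1.27 to 8.57), a comparison added after the values were seen. NuRD sites gave the same order, with the octamer at 8.13% of those with a ZFP296 peak and 4.385% of those without (odds ratio 1.93, interval 1.18 to 3.19, exact p = 0.00632, adjusted p = 0.0442). Among peaks with a ZFP296 value of at least 10 the octamer's odds ratio was 1.56, with an adjusted p = 0.457 by the exact test.

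**Figure D1:**
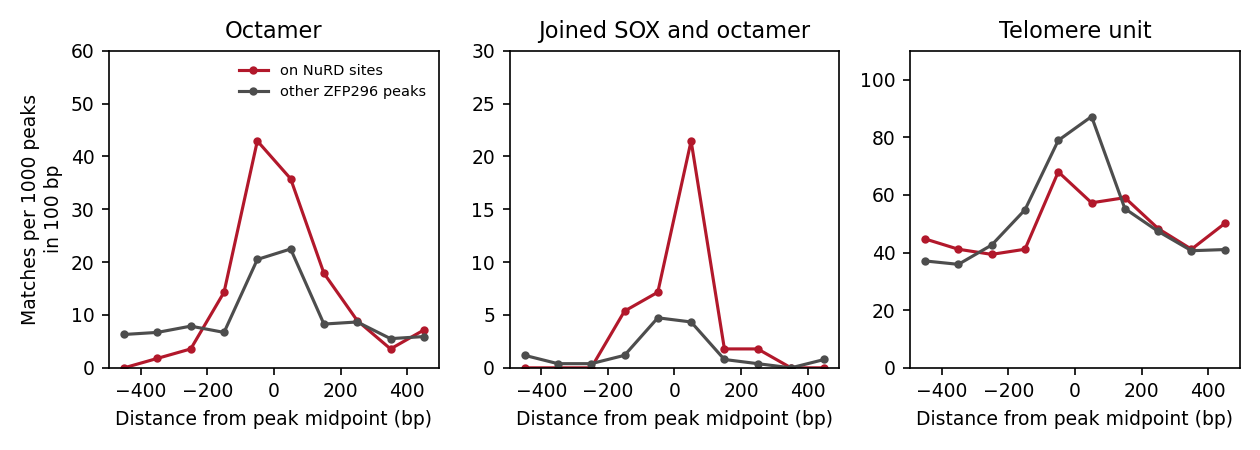
Matches to 3 strings per 1000 peaks (vertical axis) in bins of 100 bp against the distance from the peak midpoint in bp (horizontal axis), for 559 ZFP296 peaks on NuRD sites and 2535 other ZFP296 peaks. The octamer reached 42.9 and 35.8 matches per 1000 members in the central pair of bins against 20.5 and 22.5 in other peaks, the joined SOX and octamer string stood at 7.16 and 21.5 against 4.73 and 4.34, and the telomere unit at 68.0 and 57.2 against 78.9 and 87.2.

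For the other strings of pluripotency factors, the shares in the central 200 bp of members and of other peaks gave no difference past the threshold. The joined SOX and octamer string, the composite element of SOX2 and POU5F1, was present at 12 members (2.15%) and 23 other peaks (0.907%), an odds ratio of 2.40 with an interval of 1.08 to 5.05 (exact p = 0.0237, adjusted p = 0.09285). Genome tiles held it at 0.205%. In the central 500 bp the joined string was past the threshold, at 17 members and 29 other peaks (odds ratio 2.71, exact test, adjusted p = 0.0134). It was also past the threshold without CHD4 replicate 1 (odds ratio 2.725, exact test, adjusted p = 0.0315), and in none of the other alternatives. The SOX string stood at 7.51% of members and 6.04% of other peaks, and the ESRRB string at 3.22% and 2.37%. Beyond this window, from 100 to 200 bp left of the midpoint, ESRRB matches numbered 16 in 559 members and 19 in 2535 other peaks. To the right they numbered 7 and 12, and these counts of matches were not tested. The KLF string GGGTGTGG stood at 8.23% and 6.11%, the KLF string GGGCGTGG at 2.15% and 2.13%, and the STAT string at 2.33% and 1.62%. Each of these was above its share of genome tiles in both classes, which was 3.51% for the SOX string, 0.421% for the ESRRB string, 1.19% and 0.446% for the KLF strings and 0.503% for the STAT string. Any of 7 strings, these and the octamer, was present at 167 members (29.9%) and at 530 other peaks (20.9%), a pooled share that was not tested. Matches describe letters in these windows and say nothing on whether a factor was bound.

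The AP-1 string TGANTCA was the other string that differed, at 46 members (8.23%) and 130 other peaks (5.13%), with an odds ratio of 1.66 (interval 1.14 to 2.37) and an adjusted p = 0.0435 by the exact test. Its share of genome tiles was 5.93%, and its call was lost when CHD4 replicate 2 was left out (adjusted p = 0.0613, exact test) and in most other alternatives. NuRD sites with and without ZFP296 held it at 5.83% and 6.08%. The telomere unit TTAGGG gave 11.8% of members and 10.1% of other ZFP296 peaks, with an adjusted p = 0.319 by the exact test. Counted by match and not by peak, the order was the opposite. The central pair of bins held 68.0 and 57.2 matches per 1000 members and 78.9 and 87.2 per 1000 other peaks. Between NuRD sites the unit did differ, at 66 of 566 sites with ZFP296 (11.7%) and 44 of 707 without (6.22%), and the odds ratio was 1.99 (interval 1.31 to 3.04, exact p = 0.0008555, adjusted p = 0.012), beside 7.57% of genome tiles. Its tandem of 2 copies lay under 12 other peaks (0.473%) and 0 of 559 members, which allows a share of up to 0.537% if a count of 0 is bounded by 3 counts, so a difference was not detectable (exact p = 0.14). The remaining strings, those of factors common at CpG-rich promoters and insulators, had lower or equal shares in members, with none past the threshold after adjustment. The E-box CACGTG stood at 2.50% of members and 4.58% of other peaks, the ETS string CCGGAAG at 2.68% and 4.50%, the NRF1 string at 0% and 0.118%, and the CTCF core at 0.179% and 0.828%. RefSeq promoter windows held the same strings at 5.26%, 6.30%, 0.728% and 0.4815%.

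Members were poorer in CpG than the other peaks. The observed over expected CpG of the central 200 bp had a median of 0.186 in members and 0.25 in other peaks, and it reached 0.6, the usual bound of a CpG island, in 15 members (2.68%) and 455 other peaks (17.95%). Within TSS windows the shares at or above 0.6 were 12.5% of members and 41.8% of other peaks. Outside them the shares were 1.41% and 7.81%, with medians of 0.178 and 0.2. NuRD sites with ZFP296 reached it at 3.18% and those without at 13.15%. Median GC content was 49.5% in members and 51.5% in other peaks.

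The ZFP296 peak and the peaks of both NuRD subunits lay on nearly the same bases. The midpoint of the ZFP296 peak was within 100 bp of the MBD3 midpoint at 408 of 560 members and of the CHD4 midpoint at 361, with median gaps of 60 and 72.5 bp. The shared stretch had a median of 219 bp with MBD3 and 237.5 bp with CHD4. A single MBD3 site lay under 546 members, and 14 held 2. These measures follow from the rule and are given as a description. At the edge of the rule, a peak near Fam159a shared 1 bp with a CHD4 site, a peak near Socs3 shared 4 bp with an MBD3 site and a peak near I0C0044D17Rik shared 6 bp with an MBD3 site, with ZFP296 values of 6.945, 5.02 and 12.2. The nearest peaks outside it lay 4 bases from an MBD3 site near Trim13 and 7 bases from a CHD4 site near Nrp2 and near Panx1, with ZFP296 values of 9.05, 12.01 and 17.4. Another 85 peaks were within 1 kb of both kinds of site, and 928 overlapped an MBD3 and a CHD4 peak in some ESC list without meeting the rule, while 818 overlapped a peak in none of the 4 lists.

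Members stood higher in the ZFP296 list than other peaks, with median values of 10.4 (range 3.16 to 80.5) and 8.14, and were wider, with medians of 284 and 240 bp. The share of ZFP296 peaks on NuRD sites was 10.65% in the lowest quartile of the value, 11.85% in the second, 18.75% in the third and 30.7% in the highest. Among members the ZFP296 value went weakly with the values of the NuRD lists, with Spearman's rho of 0.186 and 0.231 for the MBD3 replicates and 0.071 and 0.122 for the CHD4 replicates over 560 peaks, which share width and local background. The number of members rested on the lists required, since it was 964 when MBD3 replicate 1, the shorter of both MBD3 lists with 2344 peaks, was left out, and 292 when the ZFP296 value had to reach 10. Chromosome 8 had 24 of its 66 ZFP296 peaks among the members (36.4%).

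**Figure D2:**
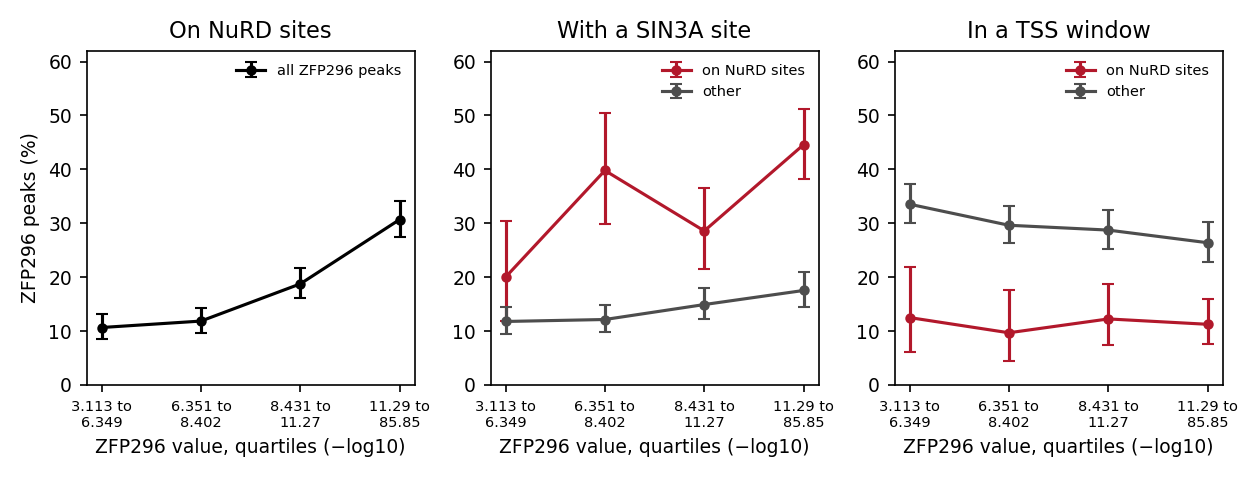
Shares in percent (vertical axes) against the quartile of the authors' ZFP296 value, from 3.11 to 6.35 in the lowest to 11.3 to 85.85 in the highest (horizontal axes), for peaks on NuRD sites, peaks with a SIN3A site and peaks in a TSS window, the latter pair split into members and other peaks. The share on NuRD sites went from 10.65% to 30.7%, the SIN3A share of members stood above that of other peaks in each quartile, and the TSS share of members below it.

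The 12 members with the highest ZFP296 values lay near Hspa8, Zfp296, Slc2a1, Sh3pxd2a, Mocos, Tmem22, Kcnj12, Jarid2, Trim8, B4galt5, Tnrc18 and Tns3, none of them in a TSS window. The first was 6.59 kb upstream of Hspa8, a constitutive chaperone of the HSP70 family (chr9:40602218-40602739), with a value of 80.5 for ZFP296, 15.6 and 9.16 for MBD3, 7.63 and 14.6 for CHD4, and no SIN3A peak. Its MBD3 value was above the median of all members in replicate 1 and below it in replicate 2, and both CHD4 values were below it. The second was 1.43 kb upstream of Zfp296 itself (chr7:20160891-20161529), with 75.2 for ZFP296, 12.3 and 51.7 for MBD3, 29.1 and 54.8 for CHD4 and 21.9 for SIN3A in the list without spike-in alone. It had the highest value of all 560 members in CHD4 replicate 2. Another member, chosen after its values were seen, stood at the start of the neighbouring gene Gemin7 (chr7:20158161-20158570), with 30.9 for ZFP296, 24.9 and 49.4 for MBD3, 10.6 and 28.5 for CHD4 and 29.2 and 10.3 for SIN3A. Both lie at the gene that the labels name for the BAC, and the part of added copies in their ZFP296 values was not tested.

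The third member by value was 36.8 kb upstream of Slc2a1, which encodes the glucose transporter GLUT1 (chr4:118744114-118744921), with 62.4 for ZFP296, 17.98 and 34.5 for MBD3, 19.4 and 19.2 for CHD4, and 16.7 and 15.9 for SIN3A. The fourth was in an intron of Sh3pxd2a, a gene for an adaptor protein of podosomes (chr19:47524897-47525663), with 62.4 for ZFP296, 35.55 and 46.2 for MBD3, 34.8 and 30.8 for CHD4, and 21.9 and 14.7 for SIN3A. Both members were above the median of all members in each of these lists. The member in an intron of Jarid2, a cofactor of the Polycomb complex PRC2, had 46.8 for ZFP296, 7.88 and 44.96 for MBD3, 15.2 and 28.6 for CHD4 and no SIN3A peak (chr13:44946895-44947205). Jarid2 was also the gene nearest to the most members, 5, with Pou5f1, Tgif1 and Gm1631 at 4 each.

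SIN3A was found at members more often than at the other ZFP296 peaks, and the difference was larger away from gene starts. A SIN3A site, a peak of the list with spike-in that overlaps one of the list without spike-in, lay at 202 of 560 members (36.1%, interval 32.1% to 40.2%) and at 353 of 2542 other peaks (13.9%), against 17.9% of all ZFP296 peaks. This was an odds ratio of 3.497, with an interval from 2.83 to 4.32 and an adjusted p = 4.12e-30 over 6 exact tests. Each SIN3A list alone gave the same direction, with 63.9% of members and 32.7% of other peaks without spike-in, and 43.75% and 18.02% with it. Outside TSS windows 170 of 496 members (34.3%) and 141 of 1786 other peaks (7.895%) had a SIN3A site, an odds ratio of 6.08 (interval 4.68 to 7.90). Within TSS windows it was 32 of 64 members (50%) and 212 of 756 other peaks (28.04%), an odds ratio of 2.56 (interval 1.48 to 4.44). The odds ratio outside was 2.37 times that inside (interval 1.34 to 4.21), and these splits were chosen after the pooled values were seen.

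The share with SIN3A outside TSS windows differed between the classes of ZFP296 peak. It was 34.3% of members, 15.1% of peaks on a CHD4 site without an MBD3 site, 19.6% of the 56 peaks on an MBD3 site without a CHD4 site, and 4.11% of peaks on neither. Members differed from the peaks on a CHD4 site alone with an odds ratio of 2.93 (interval 2.15 to 4.02, Fisher's exact test, adjusted p = 3.12e-12 over 14 added tests), and these differed from peaks on neither with an odds ratio of 4.14 (interval 2.82 to 6.14). Peaks that overlapped no MBD3 or CHD4 peak in any ESC list had a SIN3A site at 18 of 468 positions outside TSS windows (3.85%).

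**Figure D3:**
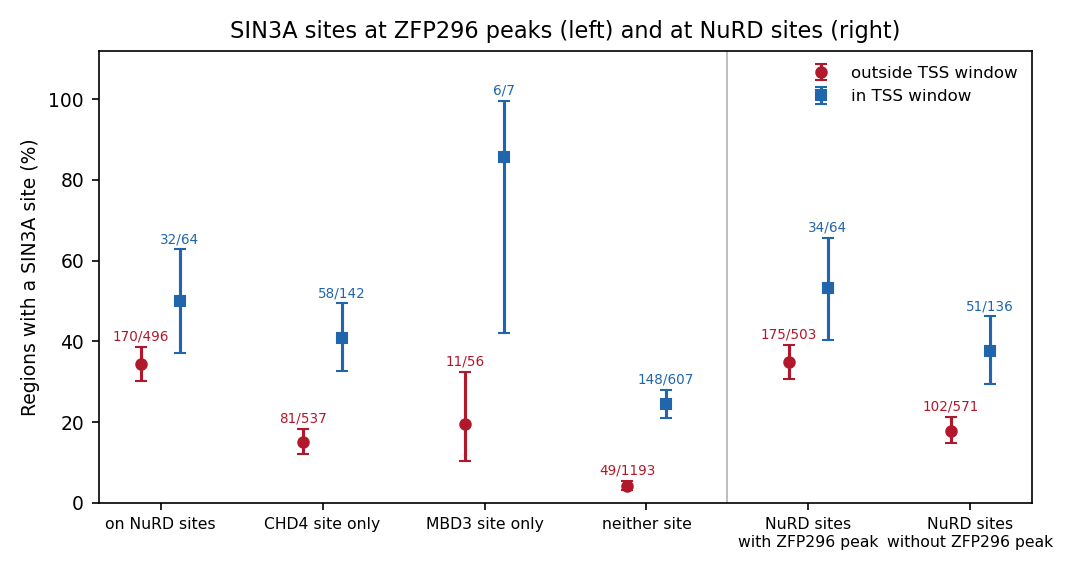
Share of sites with a SIN3A site in percent (vertical axis) by class of ZFP296 peak and for NuRD sites with and without a ZFP296 peak (horizontal axis), outside and in TSS windows, with 95% exact binomial intervals. Outside TSS windows members stood at 34.3% and peaks on neither kind of site at 4.11%, and NuRD sites at 34.8% with ZFP296 and 17.9% without.

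NuRD sites showed the same from the other side. A SIN3A site lay at 209 of 567 NuRD sites with a ZFP296 peak (36.9%) and 153 of 707 without (21.6%), an odds ratio of 2.11 (interval 1.64 to 2.73, exact test, adjusted p = 5.11e-09 over 6 tests). The odds ratio was 2.45 outside TSS windows (interval 1.83 to 3.29) and 1.88 within them (interval 0.99 to 3.60, exact p = 0.0462, adjusted p = 0.0498 over 14 tests). Strength of the ZFP296 peak moved with this readout, since members with a SIN3A site had a median ZFP296 value of 11.4 and members without one 9.85. Members with a SIN3A site were also wider, with medians of 294.5 and 274.5 bp. NuRD sites with ZFP296 were wider than those without (medians 301 and 269 bp) and higher in MBD3 replicate 1 (9.93 and 8.76). The part of width and MBD3 value in the odds ratio at NuRD sites was not tested. Within each quartile of the ZFP296 value the members were above the other peaks, at 20% and 11.8% in the lowest, 39.8% and 12.1% in the second, 28.6% and 14.9% in the third and 44.6% and 17.5% in the highest. Of the 12 members with the highest values 6 had a SIN3A site, near Slc2a1, Sh3pxd2a, Kcnj12, Trim8, Tnrc18 and Tns3. Among the 12 members with the joined SOX and octamer string 1 had a SIN3A site. The string lay at 0.4975% of members with and 3.07% of members without a SIN3A site (exact p = 0.0641, adjusted p = 0.898). None of the strings searched differed between these members past the threshold.

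Those 12 members with the joined string included peaks near Tmem51, Osbpl10, H2afb1, Gm4609, Sh2d4b, Socs2, Ctsf and Cdc42ep3, with ZFP296 values of 18.65, 17.4, 16.9, 15.7, 11.6, 10.8, 10.1 and 9.64. Socs2 encodes an inhibitor of cytokine signalling and H2afb1 a histone H2A variant. In the windows near Tmem51 and Osbpl10 printed above, the joined string occupied bases 84 to 93 and 86 to 95, and a STAT string bases 170 to 178 and 120 to 128.

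Members lay farther from gene starts than the other ZFP296 peaks. A TSS window held 64 of 560 members (11.4%, interval 8.91% to 14.4%) and 756 of 2542 other peaks (29.7%), beside 26.4% of all ZFP296 peaks, an odds ratio of 0.305 (interval 0.228 to 0.402, Fisher's exact test, adjusted p = 7.16e-21 over 6 tests). NuRD sites with a ZFP296 peak were in such windows at 11.3% and those without at 19.2% (odds ratio 0.5345, interval 0.381 to 0.743, exact p = 0.000102). ZFP296 peaks on a CHD4 site without an MBD3 site stood between, at 20.9%. Outside the windows 306 members were intergenic (54.6%, against 40.01% of other peaks), 178 in introns (31.8% against 27.3%) and 12 in exons (2.14% against 2.95%). Within 1 kb of a start lay 6.44% of members and 21.3% of other peaks, and between 20 and 50 kb from one 26.3% and 19.8%. The median distance was 16.2 and 11.1 kb, and beyond 50 kb the shares were 18.4% and 17.9%.

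**Figure D4:**
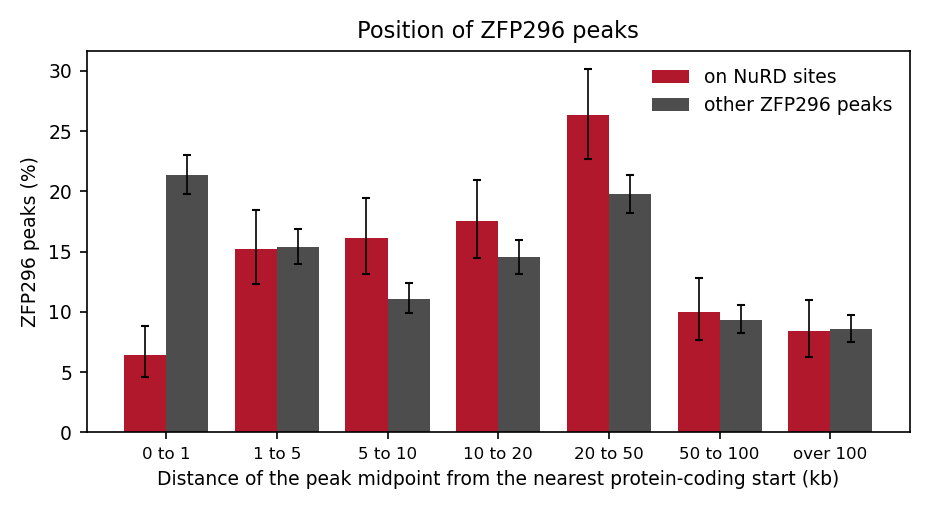
Share of peaks in percent (vertical axis) by distance to the nearest protein-coding start in kb (horizontal axis, 7 bins) for 559 ZFP296 peaks on NuRD sites and 2535 other ZFP296 peaks, with 95% exact binomial intervals. The bin under 1 kb held 6.44% of members and 21.3% of other peaks, and the bins from 5 to 50 kb each held a larger share of the members.

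In NPCs, the neural cells derived from the ESCs, members and other ZFP296 peaks were called at similar, low shares. An NPC CHD4 peak overlapped 36 of 560 members (6.43%) and 169 of 2542 other peaks (6.65%), against 6.61% of all ZFP296 peaks, and the odds ratio of 0.965 had an interval of 0.6455 to 1.41 (exact p = 0.925). An NPC MBD3 peak overlapped 4 members (0.714%) and 21 other peaks (0.826%), against 0.806% of all ZFP296 peaks. NuRD sites differed in the NPC MBD3 list. It had a peak at 5 of 567 NuRD sites with ZFP296 (0.882%) and at 46 of 707 without (6.51%), an odds ratio of 0.128 (interval 0.0394 to 0.324, exact test, adjusted p = 1.53e-07 over 14 tests), a test added after the values were seen. Without ESC MBD3 replicate 1 this odds ratio was 0.211. The same direction held outside TSS windows, at 0.398% and 2.63% (adjusted p = 0.00409 by the exact test), and within them, at 4.69% and 22.8% (adjusted p = 0.00162). The NPC CHD4 list had peaks at 6.70% and 9.62% of these NuRD sites, with an odds ratio of 0.675 whose interval ran from 0.434 to 1.04 (exact p = 0.0663). It was 10.9% and 26.5% within TSS windows (odds ratio 0.343, interval 0.121 to 0.848, exact p = 0.0157, adjusted p = 0.02) and 6.16% and 5.60% outside them (interval of the odds ratio 0.642 to 1.90). Each NPC protein had 1 list, with 2304 peaks for MBD3 and 20234 for CHD4.

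The 4 members with both NPC peaks lay near Tead4, Txnrd2, Nanos3 and Kdelc2. The one near Tead4, a gene for a transcription factor of the trophectoderm (chr6:128246612-128246845), had 9.14 for ZFP296, 20.6 and 25.02 for ESC MBD3, 13.2 and 36.9 for ESC CHD4, 29.8 for NPC MBD3 and 30.1 for NPC CHD4. The one near Txnrd2, a mitochondrial thioredoxin reductase gene (chr16:18426441-18426653), had 8.98 for ZFP296, 4.02 and 25.5 for ESC MBD3, 8.50 and 16.6 for ESC CHD4, 11.45 for NPC MBD3 and 13.1 for NPC CHD4. Near Nanos3, a gene of germ cell survival (chr8:86715899-86716078), the ZFP296 value was 4.97, beside 11.3 for NPC MBD3 and 15.3 for NPC CHD4. All 4 had a ZFP296 value below the median of the members, and the peak near Kdelc2 had 4.76, with 16.7 for NPC MBD3 and 8.56 for NPC CHD4.

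Of the 560 members, 101 lay in 46 runs of members less than 10 kb apart, and 459 stood alone. The shortest of the 6 runs with 3 or more members was at Pou5f1, the gene for the central pluripotency factor OCT4, with 4 members in 3.641 kb (chr17:35639454-35643094). Its members lay 3.38, 1.93 and 0.906 kb upstream of the start and at the start itself. Their ZFP296 values were 9.28, 16.8, 22.6 and 11.3 in this order. MBD3 replicate 1 gave 10.4, 18.35, 12.9 and 8.03, and replicate 2 gave 12.9, 11.8, 9.41 and 14.6. CHD4 replicate 1 gave 15.8, 17.4, 20.1 and 9.40, and replicate 2 gave 11.7, 27.6, 31.9 and 12.9. Both members between the ends of the run were the highest in the ZFP296 list and in both CHD4 lists, whereas MBD3 replicate 2 was highest at the start. SIN3A gave 8.46, 21.0, 16.1 and 18.9 without spike-in and no peak, 22.1, 20.7 and 6.82 with it, so 3 of the 4 had a SIN3A site.

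The run with the most members had 5 in 16.7 kb (chr7:3201246-3217927) and ended 0.7 kb before Mir290, the first gene of the cluster that also holds Mir291a, Mir292, Mir291b, Mir293, Mir294 and Mir295, the main microRNAs of mouse ESCs. Along the run the ZFP296 values were 13.1, 34.5, 8.48, 9.25 and 5.50. MBD3 replicate 1 gave 15.2, 12.1, 8.31, 4.885 and 10.2, and replicate 2 gave 15.2, 12.01, 4.64, 12.01 and 14.1. CHD4 replicate 1 gave 29.8, 22.5, 10.6, 19.7 and 6.66, and replicate 2 gave 26.3, 18.8, 10.7, 10.1 and 15.5. The second member was the highest for ZFP296 and the first for both replicates of MBD3 and of CHD4. SIN3A without spike-in gave 23.2 and 19.4 at the first pair, no peak at the third member and 16.7 and 22.6 at the last pair, and 4 of the 5 had a SIN3A site. Another run, of 3 members in 3.801 kb, lay upstream of Socs3, the feedback inhibitor of LIF and STAT3 signalling. Its ZFP296 values were 14.7, 12.7 and 5.02 at 3.64, 6.59 and 7.25 kb from the start, and the latter pair also had NPC CHD4 peaks of 5.68 and 7.15.

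**Figure D5:**
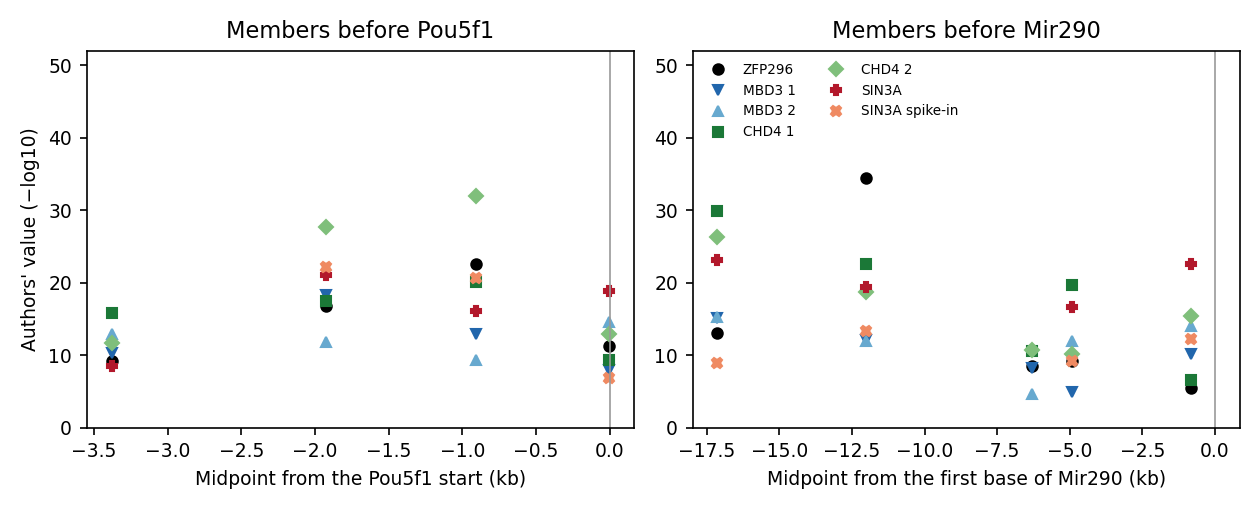
Authors' −log10 value of each list (vertical axis) at the 4 members of the Pou5f1 run and the 5 members of the run before Mir290, against position in kb (horizontal axes); values are not comparable between lists. At Pou5f1 the ZFP296 value was highest, 22.6, at the member 0.906 kb upstream, and in the other run it was highest, 34.5, at the second member.

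Pluripotency regulators and genes of the signalling list, which holds ligands, receptors, targets and inhibitors of LIF, BMP, Nodal and FGF signalling, had a member within 100 kb at larger shares than all genes did. Of all 22238 protein-coding genes 6.75% had a member within this distance and 30% any ZFP296 peak. Of 24 pluripotency regulators 10 had a member (41.7%) and 17 any ZFP296 peak, and at 20 kb it was 7 of them, beside 1.66% of all genes. The lists were chosen with earlier results of these data known, so these counts are given as a description. In the list of signalling genes 8 of 21 had a member (38.1%) and 17 any ZFP296 peak.

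Among the pluripotency regulators, Tcfcp2l1, a factor of naive pluripotency, had its nearest member 2.35 kb upstream (chr1:120522031-120522303), with 19.1 for ZFP296, 31.3 and 9.16 for MBD3, 22.8 and 11.3 for CHD4 and 13.2 for SIN3A without spike-in. It is the first of the octamer windows printed above. The Krüppel-like factors Klf2 and Klf4 had members 15.4 and 54.1 kb from the start with ZFP296 values of 7.89 and 10.75, both with a SIN3A site. Prdm14, which restrains DNA methylation in naive cells, had 1 at 42.1 kb with a ZFP296 value of 10.7 and a SIN3A site. The nearest members of Esrrb, Tbx3, Foxd3 and Mycn had ZFP296 values of 6.21, 12.01, 10.4 and 9.85 and no SIN3A site. A stronger member in an Esrrb intron, 31.8 kb from the start and chosen after its values were seen, had 38.25 for ZFP296, 7.99 and 12.7 for MBD3, 13.96 and 13.01 for CHD4 and 17.35 and 20.6 for SIN3A (chr12:87842585-87843147).

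Among the signalling genes, the receptor subunit Il6st (gp130), through which LIF acts, had its nearest member 12.4 kb upstream (chr13:113252734-113252976), with 6.945 for ZFP296, 8.31 and 10.5 for MBD3, 11.4 and 16.3 for CHD4, and 11.2 and 19.2 for SIN3A. This member also holds an octamer. The ligand gene Nodal had 1 at 1.88 kb upstream (chr10:60878708-60878964), with 11.6 for ZFP296, 12.8 and 12.7 for MBD3, 18.7 and 18.8 for CHD4, and 10.4 and 12.7 for SIN3A. The receptor gene Fgfr2 had 1 in an intron 8.2 kb from an annotated start, with 14.8 for ZFP296 and a SIN3A site. This member lay within the annotated spans of both Fgfr2 and Ctbp2, and the start nearest to it was that of Ctbp2. The BMP target Id1 had 1 at 84.4 kb, inside an intron of Bcl2l1, and Smad7, an inhibitor of TGF-β signalling, 1 at 22.5 kb upstream, with ZFP296 values of 25.01 and 24.2. The FGF inhibitors Spry2 and Spry4, chosen after their values were seen, had members 24.2 and 0.711 kb upstream with ZFP296 values of 11.2 and 7.71.

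Of 14 NuRD subunit genes 1 had a member within 100 kb (7.14%), Rbbp4, a histone chaperone subunit, at 83.2 kb, and of 13 SIN3 complex genes 0 did. Both counts are near the 6.75% of all protein-coding genes for lists of this size. Among 12 genes of NuRD partners these were Zfp296, Sall1 and Zmynd8, both latter genes encoding zinc finger proteins that recruit NuRD, with members at 28.45 and 70.0 kb and ZFP296 values of 11.5 and 12.8. Regulators of early lineages had 2 of 19 found in the annotation, Otx2 and Fgf8, and ribosomal protein genes 7 of 79 (8.86%). The DNA methylation list had 2 of 9, Tet1 and Tet2, which encode dioxygenases of 5-methylcytosine, and the PRC2 list 2 of 9, Eed and Jarid2. Of these genes, chosen after their values were seen apart from Jarid2, Tet1 had a member 3.46 kb into the gene with 18.4 for ZFP296, and Eed 1 at 5.15 kb with 14.04.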

How the data were processed

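Peak lists of 9 samples were used, and 27 further samples were not analysed here. The authors mapped reads to mm9 with BWA, kept unique reads without duplicates, and called peaks per sample with MACS 2.0. Their methods name input of the same cell line as the reference, but no sample of the series is labelled as input of the ZFP296-BAC line. The submitters' processing notes also name SAMtools. Each deposited peak has a −log10 value, whether of p or q is not given in the sources used here. Thresholds in the peak names were 0.001 for 8 lists and 0.0001 for SIN3A without spike-in, and names in 7 lists mention equal read numbers.

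The members and all lists, strings and tests were chosen with earlier results of these data known. Overlaps of at least 1 bp gave sites and members. Positions came from GENCODE starts on NCBIM37, which is mm9, and string matches on either strand were counted in 200 bp at the middle of peaks, of promoter windows and of 12778424 genome tiles. An octamer or SOX match may overlap the joined string. Shares were compared by two-sided Fisher's exact tests with Benjamini-Hochberg adjustment over 6 planned tests, 14 strings or 14 tests added after the first values were seen. Intervals of shares are exact (Clopper-Pearson, 95%) and cover counting error only. The scripts were tested on simulated data. Named members were the 12 highest by ZFP296 value, the nearest member of listed genes up to 20 genes, 3 on each side of the rule's edge, up to 8 with the joined string, those with both NPC peaks and 3 runs, taken by most members and then by shortest length. Alternatives left out each ESC list in turn, raised the overlap, the value minimum and the distance limits, or stratified by TSS window or value. Python 3.11.15, numpy 2.4.6, scipy 1.17.1, statsmodels 0.14.6, matplotlib 3.10.9, pyfaidx 0.9.0.4 and samtools 1.23.1 were used. The member nearest to 1 listed gene is not reported here.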

Additional observations from a re-analysis of the deposited data

How the results depend on the processing

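The number of members ranged from 568 to 964 when each ESC MBD3 or CHD4 list was left out in turn, and it was 292 with ZFP296 values of at least 10. For NPC CHD4 peaks at members the odds ratio ranged from 0.877 to 1.03 over these omissions, with 1.03 without MBD3 replicate 1, and was 1.09 stratified by TSS window (Mantel-Haenszel), so its direction was not settled. For NPC CHD4 peaks at NuRD sites it ranged from 0.559 to 0.848, was past the threshold at 0.559 without MBD3 replicate 2 and at 0.609 without CHD4 replicate 1, at 0.5995 with an overlap of at least 50% of the shorter interval, and was 0.128 for NPC MBD3 peaks. The strings past the threshold numbered 1 to 3 over the omissions (2 with all lists), 1 without CHD4 replicate 2, 0 at values of at least 10, 1 in the central 100 bp, 5 in the central 500 bp and 0 outside TSS windows. Those in the central 500 bp included the octamer and the joined SOX and octamer string, and not the AP-1 string. Listed genes with a member numbered 28 at 100 kb and 17 at 20 kb. The odds ratios for SIN3A sites (2.67 to 3.59 at members, 1.98 to 2.34 at NuRD sites) and TSS windows (0.297 to 0.359 and 0.488 to 0.775) kept their direction over the omissions. Without MBD3 replicate 1 the odds ratio for NPC MBD3 peaks at NuRD sites was 0.211 (range over the omissions 0.106 to 0.211). Of 83 alternatives to the main comparisons 69 kept direction and side of the threshold or, for counts, stayed within 1.5 times the main count. The 50% overlap at NuRD sites, the omission of chromosome 8 and the stratification by SIN3A site were chosen after seeing the data. Shares of soft-masked repeats were not run, because the reference used holds no lower-case bases. No paired analysis was possible because results came from overlaps of peak lists and not from replicate values. Depth, known only from peak names in 7 lists and unknown for the SIN3A lists, limits every absence of a peak.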
